A study of Mus musculus with 18 samples.

Results

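The suppressor of cytokine signaling (SOCS) family has 8 genes in the mouse, Cish, Socs1, Socs2, Socs3, Socs4, Socs5, Socs6 and Socs7, and all 8 were found by symbol among the 23420 genes listed for each of 18 RNA-seq libraries of splenic B cells. Their transcript levels, their response to a TLR agonist and the difference between TLR genotypes are described here. In these B cells Socs3, Socs1, Cish and Socs6 rose after 4 h of agonist in every genotype, Socs5 was called in none of them, and with CpG the levels of Socs3 and Socs1 were lower in B cells whose TLR9 carries the TLR7 signaling domain than in their controls.

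All mice were of the autoimmune MRL/lpr (MRL.Faslpr) strain, 5 to 7 weeks old, and the B cells were purified with beads by removing other cells, so that B cells were not themselves labelled. The libraries fall into 6 groups of 3. Tlr9het B cells (the controls, per the titles Tlr9+/- Tlr7-/-) and Tlr997 B cells (a TLR9 chimera with the TLR7 TIR domain, also Tlr7-/-) came from female mice and were left unstimulated or given the TLR9 agonist CpG (ODN 1826) at 10 µg/ml. Tlr779 B cells (a TLR7 chimera with the TLR9 TIR domain, Tlr9-/-) came from male mice and were left unstimulated or given the TLR7 agonist CL097 at 5 µg/ml. The TIR domain is the part of a TLR that passes the signal into the cell, and both chimeras were made by inserting it at the receptor's own locus, in every cell of the mouse. One label conflict touches each genotype comparison: the titles call the control Tlr9+/-, whereas the treatment protocol calls it Tlr9-/- Tlr7-/-. The titles were followed. In the study, the results and the figure legend also give Tlr9+/- Tlr7-/- for these B cells, while the RNA methods give Tlr9-/- Tlr7-/-. CL097-treated B cells with an unaltered TLR7 were not analysed here, so Tlr779 has no control genotype, and agonist, sex and genotype cannot be told apart between the Tlr779 libraries and the others.

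SOCS proteins are the classical feedback inhibitors of cytokine receptors. A cytokine bound to its receptor activates JAK kinases, which phosphorylate STAT transcription factors, and STATs switch on SOCS genes, whose products bind the receptor or the kinase through an SH2 domain and bring a cullin ubiquitin ligase to it through the SOCS box. SOCS1 and SOCS3 also block the kinase directly. SOCS1 restrains interferon signaling, SOCS3 restrains cytokines that use the gp130 receptor chain, such as IL-6, and CIS and SOCS2 are known for limiting STAT5 signaling. SOCS4 to SOCS7 are less studied and are better known for their part in growth factor and insulin signaling.

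Promoter sequences of the members are shown first because the inducible genes are known STAT and interferon targets. The RefSeq promoter table (GRCm38.p6, the same build as the mm10 genome used by the authors) holds 300 bases for Cish, Socs1, Socs3 and Socs4, from 250 before to 50 after the transcription start. Socs2, Socs5, Socs6 and Socs7 are not in it. Both strands were searched for the GAS element bound by STAT dimers (TTCNNNGAA), the core bound by interferon regulatory factors (GAAANNGAA) and the NF-κB consensus. The NF-κB consensus was in none of these 4 windows, and no GAS match overlapped an IRF match. Capitals in the 30-base windows mark the matches.
Socs3, GAS, chr11:117969501-117969530, minus strand: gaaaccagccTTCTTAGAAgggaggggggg
Cish, GAS, chr9:107296654-107296683, plus strand: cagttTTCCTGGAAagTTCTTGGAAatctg
Socs1, IRF core, chr16:10785597-10785626, minus strand: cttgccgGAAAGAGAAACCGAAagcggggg
The Socs3 match begins 154 bases before the RefSeq start, within a GENCODE M21 transcript but outside its UTRs and coding sequence. Cish has 2 GAS matches, which begin at bases 1 and 12 of the RefSeq transcript, and GENCODE places the window in a UTR. The GENCODE genes begin further upstream, at chr11:117970047 for Socs3 and at chr9:107296026 for Cish. The sequence around those starts was not searched for any of the motifs. Socs1 has 2 overlapping IRF matches, which begin 83 and 77 bases before the start and lie upstream of every annotated transcript. None of the 3 motifs was in the Socs4 window. Among all 32544 RefSeq mouse promoters of that length, 8.33% held the GAS letters, 8.53% the IRF core and 8.49% the NF-κB consensus, and a match of letters is no evidence of binding.

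The values are log2 CPM (counts relative to library size, on a log2 scale, after the authors' normalization), so their depth is unknown. Replicate libraries correlated with each other at r of 0.947 to 0.99 across the tested genes, and genes are not independent points. The lowest r was in the unstimulated Tlr997 group and involved replicate 3, which stands apart below. The receptor genes were listed well above the filter in all libraries, including those labelled knockout. Tlr7 lay between 2.68 and 4.28 log2 CPM in Tlr9het, between 4.81 and 5.36 in Tlr997 and between 6.61 and 7.82 in Tlr779. Tlr9 lay between 6.93 and 7.47 in Tlr779, which is Tlr9-/-. Without agonist Tlr9 lay between 7.28 and 7.48 in Tlr9het and between 7.02 and 7.06 in Tlr997. With CpG it lay between 7.93 and 8.08 in Tlr9het and between 7.181 and 7.555 in Tlr997. Every Tlr997 library was thus below the Tlr9het libraries of the same treatment. These are transcript values. By intracellular staining the study found equal TLR9 protein in Tlr997 and Tlr9+/- B cells, and chose Tlr9+/- as the control for that reason. The part of the Tlr9 transcript level in the SOCS differences was not tested. A single value per gene does not show which exons were read, so the Tlr9 level does not settle the label of the control. That control did respond to CpG, a TLR9 agonist, with 29.7% of tested genes called higher and 28.2% lower. The 5 B cell markers used here (Ms4a1, Cd79a, Cd79b, Pax5 and Cd22) were all detected, with a summed level of 4869 to 6552 CPM in unstimulated libraries. The summed level of 7 macrophage and monocyte markers was 123 to 452 CPM there, and that of 8 T cell markers 57.7 to 94.7 CPM. Most of the T cell sum was Lck, with group means of 54.4 to 66.0 CPM, whereas those of Cd3e were 0.8 to 1.6.

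Before stimulation the family was led by members that are not known as cytokine-induced. Levels were set beside each other per kilobase of exon, a scale that depends on the annotated exon length of each gene. On it Socs5 stood at 14.1 ± 0.4 CPM/kb (mean ± SD, n = 3) in unstimulated Tlr9het, followed by Socs7 at 9.21 ± 0.20 and Socs4 at 5.43 ± 0.21. Socs3 came next at 4.27 ± 0.81 CPM/kb. Socs1 at 1.73 ± 0.50 and Socs6 at 1.67 ± 0.06 overlapped between libraries, as did Cish at 0.282 ± 0.084 and Socs2 at 0.187 ± 0.089, the 2 lowest. The order was the same in unstimulated Tlr997, and in unstimulated Tlr779 it differed only in that Socs6 stood above Socs1. Neighbours whose libraries overlapped were Cish and Socs2 in all 3 unstimulated groups, Socs1 and Socs6 in Tlr9het, and Socs4 and Socs3 in Tlr997.

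Summed over the 8 genes, the family stood at 36.9 ± 1.2, 36.6 ± 3.1 and 37.4 ± 1.3 CPM/kb in unstimulated Tlr9het, Tlr997 and Tlr779. With agonist the sum was 245 ± 17 CPM/kb in Tlr9het, 116 ± 22 in Tlr997 and 162 ± 40 in Tlr779, and the 9 stimulated libraries all lay above the 9 unstimulated ones. Socs3 made most of that rise. Its share of the sum was 11.5% ± 1.8 in unstimulated and 79.8% ± 1.1 in CpG-treated Tlr9het, 10.3% ± 2.1 and 62.7% ± 6.8 in Tlr997, and 8.14% ± 1.26 and 74.1% ± 6.6 with CL097 in Tlr779. Socs3 thus moved from the fourth place to the first in all 3 genotypes, ahead of Socs5 without overlap. Socs1 also moved up with CpG in Tlr9het, to 9.95 ± 0.88 CPM/kb, above every library's Socs4 (7.68 ± 0.41), whereas in Tlr997 with CpG and Tlr779 with CL097 its libraries overlapped those of Socs4.

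**Figure D1:**
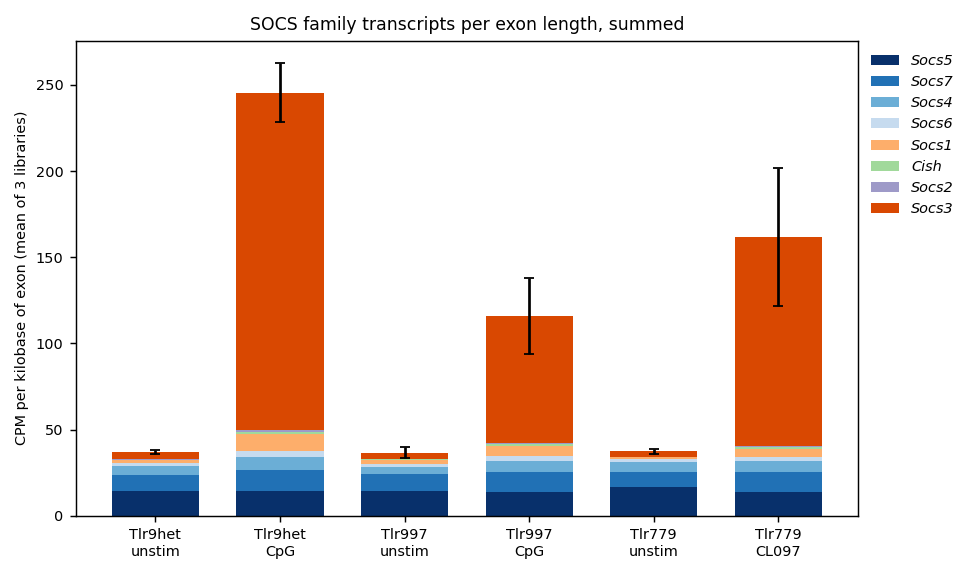
Stacked bars give the mean level of each SOCS gene in CPM per kilobase of exon (y axis) in the 6 groups of 3 libraries, and the error bars give the SD of the family sum. The sum stands near 37 CPM/kb in each unstimulated group, and the orange Socs3 segment makes up 62.7% to 79.8% of it with agonist.

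CpG raised Socs3 more than any other member in Tlr9het B cells. Socs3 stood at 3.31, 3.86 and 3.65 log2 CPM in the 3 unstimulated Tlr9het libraries and at 9.09, 9.06 and 9.28 with CpG. The groups lay far apart, and the log2 fold change of 5.54 (SE 0.22, 46.4-fold, limma adjusted p = 9.7e-11) ranked 15 from the top among 11494 genes tested. In Tlr997 Socs3 stood at 3.70, 3.65 and 2.92 log2 CPM unstimulated and at 7.39, 7.53 and 8.17 with CpG. Here too no library overlapped, and the log2 fold change was 4.27 (SE 0.22, 19.3-fold, adjusted p = 1.41e-09), rank 45 from the top.

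Socs1, the inhibitor best known for interferon signaling, also rose in both genotypes, from a low level. It stood at 1.76, 2.50 and 2.61 log2 CPM in unstimulated Tlr9het and at 4.75, 4.82 and 4.99 with CpG, a log2 fold change of 2.56 (SE 0.20, 5.91-fold, adjusted p = 6.59e-08). In Tlr997 it stood at 2.83, 2.64 and 2.64 unstimulated and at 3.89, 4.28 and 3.91 with CpG, a change of 1.32 (SE 0.20, 2.50-fold, adjusted p = 4.94e-05). Stimulated and unstimulated libraries did not overlap in either genotype, and the CpG libraries of the 2 genotypes did not overlap either.

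Cish, which encodes the STAT5-induced inhibitor CIS, was near the filter level of 0 log2 CPM before stimulation. Its values were 0.30, 0.93 and 1.19 log2 CPM in unstimulated Tlr9het and 2.64, 2.96 and 2.95 with CpG, a log2 fold change of 2.04 (SE 0.43, 4.12-fold, adjusted p = 7.61e-04). In Tlr997 they were -0.33, 0.70 and -1.22 unstimulated and 2.21, 3.19 and 2.61 with CpG, a change of 2.96 (SE 0.43, 7.76-fold, adjusted p = 3.37e-05). The genotypes overlapped with CpG, and so did their scattered starting values. GENCODE annotates the antisense gene Gm17041 over 7.46% and the pseudogene Gm17040 over 4.07% of the exon bases of Cish, and since the strand setting of the counting is not given in the sources used here, reads of these genes cannot be told apart from those of Cish there.

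Socs2, the other STAT5-linked member, was the lowest of the family and the least certain. In unstimulated Tlr9het it stood at 0.29, 0.46 and 1.47 log2 CPM, and with CpG at 3.10, 2.93 and 3.65. The groups did not overlap, and the log2 fold change was 2.49 (SE 1.08, adjusted p = 0.0539), which missed the threshold. In Tlr997 it stood at 1.05, 0.81 and -4.57 unstimulated and at 2.63, 3.03 and 3.70 with CpG, a change of 4.02 (SE 1.08, 16.2-fold, adjusted p = 0.00469). A level of 3 reads in an average library was estimated at -2.24 log2 CPM. The estimate takes the most frequent low value (-5.052) as no reads plus voom's offset, which cannot be checked without counts. The value of -4.57 in unstimulated Tlr997 replicate 3 lies below that level, and the genotypes share an estimate of the spread. Without that library Socs2 passed in both, with a log2 fold change of 2.49 (SE 0.34, adjusted p = 2.2e-05) in Tlr9het and of 2.19 (SE 0.38, adjusted p = 2.10e-04) in Tlr997. The Tlr9het response of Socs2 also passed, at an adjusted p of 0.0348, when same-numbered libraries of a genotype were paired in the fit.

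Socs6, a member linked to insulin and growth factor receptors, rose by less but with little spread. It stood at 4.28, 4.27 and 4.18 log2 CPM in unstimulated Tlr9het and at 5.27, 5.34 and 5.27 with CpG, a log2 fold change of 1.05 (SE 0.08, 2.07-fold, adjusted p = 7.42e-08). In Tlr997 it stood at 4.38, 4.36 and 4.31 unstimulated and at 4.92, 5.15 and 5.12 with CpG, a change of 0.72 (SE 0.08, 1.64-fold, adjusted p = 4.06e-06). The libraries did not overlap in either genotype.

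The other 3 members stayed under the fold threshold of 0.5 on the log2 scale. Socs4 ranged from 5.16 to 5.26 log2 CPM in unstimulated and from 5.64 to 5.79 in CpG-treated Tlr9het, a change of 0.50 (SE 0.11, adjusted p = 0.0011) that was just under the threshold, and in Tlr997 it changed by 0.47 (SE 0.11, adjusted p = 0.00167). Socs7 ranged from 6.03 to 6.08 and from 6.41 to 6.52 log2 CPM in Tlr9het without and with CpG, with a change of 0.39 (SE 0.06, adjusted p = 3.66e-05), and of 0.29 in Tlr997 (adjusted p = 4.60e-04). Both were small shifts past the adjusted p alone. Socs5, the most abundant member per kilobase at rest, ranged over 6.37 to 6.58 log2 CPM across the 12 libraries of both genotypes, and its log2 fold change was 0.01 (95% interval -0.16 to 0.18) in Tlr9het and -0.06 (-0.23 to 0.11) in Tlr997.

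In all, 4 of 8 members were called higher with CpG in Tlr9het (Socs1, Socs3, Socs6 and Cish) and none lower, at an adjusted p below 0.05 and a log2 fold change above 0.5. The background in that comparison was 29.7% of tested genes called higher and 28.2% lower. In Tlr997, 5 of 8 were called higher (the same 4 and Socs2) and none lower, beside 29.6% and 26% of tested genes. The median log2 fold change of the members was 1.55 in Tlr9het and 1.02 in Tlr997, and that of all tested genes 0.04 and 0.07. Every member had passed the filter on low values (at least 3 libraries above 0 log2 CPM) also through unstimulated libraries: 5 of 6 for Socs2, 4 of 6 for Cish and 6 of 6 for each of the other 6. Across the same libraries the summed level of the 5 B cell markers was 5082 to 5629 CPM without and 1155 to 1211 with CpG in Tlr9het, and 4869 to 5430 without and 2025 to 2482 with CpG in Tlr997. The markers within that sum did not move alike: Cd79a, Cd79b and Cd22 were called lower in both genotypes and Ms4a1 in Tlr9het (-0.75), whereas Pax5 was called higher in Tlr9het (0.54), and in Tlr997 Pax5 (0.47) and Ms4a1 (0.41) shifted upward under the fold threshold. Of 8 T cell markers Cd8a was called higher in both genotypes and Cd5 lower in Tlr9het, and of 7 macrophage and monocyte markers Lyz2 was called lower in both. Of 4 NK cell markers tested Ncr1 and Gzma were called higher in both, but none of 6 unstimulated libraries was above the filter for Ncr1 and only 1 for Gzma, so that direction was fixed by the filter. Of 4 plasma cell markers 3 were called lower in both genotypes (Sdc1 by -1.43 and -2.02, Igj by -0.73 and -0.74 and Xbp1 by -0.52 and -0.55 in Tlr9het and Tlr997), and of 4 plasmacytoid dendritic cell markers Tcf4 was called lower (-1.61 and -0.98) and Bst2 higher (0.92 and 1.43). No neutrophil or erythroid marker tested was called. Their part in the result was not tested, and in bulk libraries fewer cells of a type and less RNA per cell cannot be told apart.

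**Figure D2:**
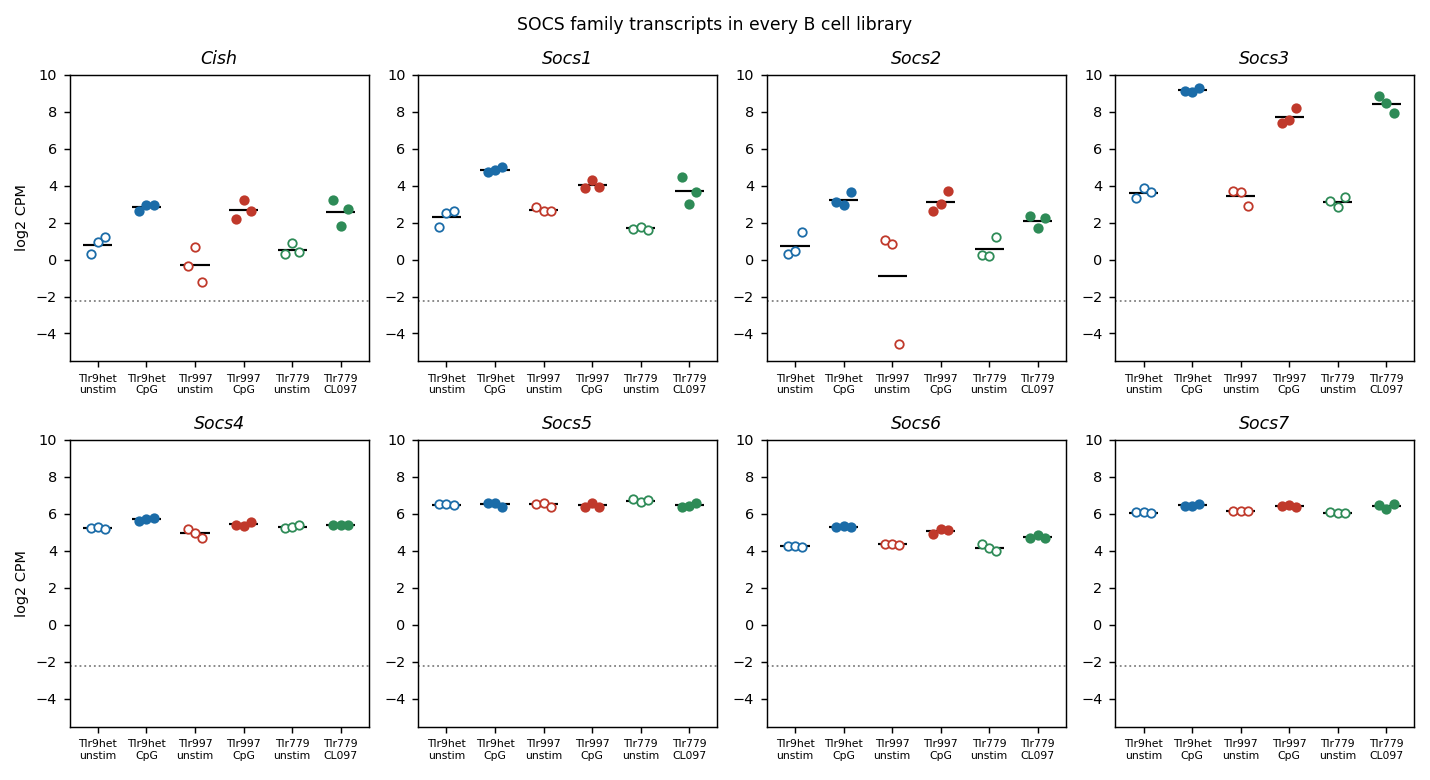
Each panel shows 1 SOCS gene in log2 CPM (y axis) in the 6 groups (x axis), with 1 point per library (open without, filled with agonist) and a line at the group mean. A dotted line marks the estimated level of 3 reads (-2.24 log2 CPM). Socs3 climbs from between 2.85 and 3.86 to between 7.39 and 9.28 with agonist, Socs5 lies between 6.37 and 6.79 in all groups, and the Socs2 value of -4.57 in unstimulated Tlr997 replicate 3 falls below the dotted line.

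The next question was whether the TLR7 TIR domain changed SOCS levels when the receptor was engaged by the same ligand. Without agonist no member was called between Tlr997 and Tlr9het by limma, where 0.0174% of tested genes were called higher and 0% lower in Tlr997. At an unadjusted p below 0.05, 2 of 8 members passed, beside 1237 of 11494 genes. These were Socs4 at a log2 difference of -0.27 (95% interval -0.51 to -0.03, adjusted p = 0.421) and Cish at -1.09 (-2.02 to -0.16, adjusted p = 0.412). The difference was 0.41 for Socs1 (95% interval -0.02 to 0.85) and -0.18 for Socs3 (-0.67 to 0.30), and neither passed.

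With CpG, Socs3 and Socs1 were lower in Tlr997 than in Tlr9het. Every Tlr997 library was below every Tlr9het library for both genes, as the values above show. The difference was -1.45 on the log2 scale for Socs3 (SE 0.22, 0.366 times the Tlr9het level, adjusted p = 0.00241) and -0.83 for Socs1 (SE 0.20, 0.564 times, adjusted p = 0.0299). On the scale per kilobase, Socs3 stood at 196 ± 16 CPM/kb in Tlr9het and at 73.7 ± 22.4 in Tlr997, and Socs1 at 9.95 ± 0.88 and 5.65 ± 0.90. Socs3 stayed past the threshold whichever of the 12 libraries was left out, with differences of -1.68 to -1.30. Socs1 kept a difference of -0.95 to -0.75 in the same 12 fits but lost its call in 5, those without Tlr997 CpG replicate 1 or 3 (adjusted p = 0.101 and 0.103) and those without Tlr9het CpG replicate 1, 2 or 3 (0.0761, 0.0906 and 0.12).

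The other 6 members were not called with CpG. Socs6 differed by -0.23 (95% interval -0.41 to -0.05, adjusted p = 0.146) and Socs4 by -0.29 (-0.53 to -0.06, adjusted p = 0.161), and in both the libraries of the genotypes did not overlap. Without agonist Socs1, Socs6 and Socs7 did not overlap either, each higher in Tlr997 and none called. The share of all tested genes without overlap was not counted, so non-overlap alone carries little weight. The intervals of the others spanned 0. They were -0.23 to 0.11 for Socs5, -0.14 to 0.10 for Socs7, -1.11 to 0.75 for Cish and -2.45 to 2.24 for Socs2, and the spread of Socs2 was too wide to show a difference of several fold in either direction. The 2 of 8 members called lower compare with 1.47% of tested genes lower and 1.25% higher, and the median difference of the members was -0.20 beside 0.00 for all tested genes. Over all genes 313 were called in either direction, and 187 to 410 when 1 library was left out, with the lowest number without Tlr9het CpG replicate 1. Both Socs1 and Socs3 were named by the study from these libraries, so this count is no independent evidence of direction.

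Whether the CpG response itself differed between genotypes was tested as an interaction. Socs1 was the only member called: its response was smaller in Tlr997, with a difference of -1.24 on the log2 scale (SE 0.28, adjusted p = 0.0434), beside 0.853% of tested genes called in that direction and 0.687% in the other. Its unstimulated level was not lower in Tlr997, with 2.64 to 2.83 log2 CPM beside 1.76 to 2.61 in Tlr9het. The difference was -1.40 to -0.97 in the 12 fits that left out 1 library each, but its adjusted p passed the threshold in only 3 of them and was at most 0.123 in the others. The call was kept without Tlr997 unstimulated replicate 3, Tlr997 CpG replicate 2 or Tlr9het unstimulated replicate 3. Over all genes 177 were called in either direction, 295 without Tlr997 unstimulated replicate 3, 87 without Tlr9het unstimulated replicate 1, and 101, 101 and 90 without Tlr9het CpG replicate 1, 2 or 3.

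Socs3 had a difference of responses of the same size, -1.27 (SE 0.32), but its adjusted p of 0.0602 missed the threshold. Without unstimulated Tlr997 replicate 3, which had the lowest Socs3 value of its group (2.92 log2 CPM), the difference was -1.52 (adjusted p = 0.0112), and without Tlr997 CpG replicate 3, which had the highest (8.17), it was -1.50 (adjusted p = 0.0291). These were the only 2 of 12 fits leaving out 1 library in which Socs3 passed. Across the 12 the difference was -1.52 to -1.11 and the adjusted p was at most 0.163. Differences for the other members did not pass: -0.34 for Socs6 (95% interval -0.59 to -0.08, adjusted p = 0.179), -0.02 for Socs4, -0.06 for Socs5 and -0.10 for Socs7. Cish at 0.91 (-0.40 to 2.23) and Socs2 at 1.53 (-1.79 to 4.85) had positive signs, and that of Socs2 turned to -0.30 without unstimulated Tlr997 replicate 3.

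Cell composition was checked beside these results. With CpG, 3 of the 5 B cell markers (Ms4a1, Cd79b and Cd22) were called higher in Tlr997 than in Tlr9het, and the summed level was 2025 to 2482 CPM beside 1155 to 1211. Most of that gap was Ms4a1, at 1520 ± 90 CPM in Tlr997 and 634 ± 19 in Tlr9het (mean ± SD, n = 3), while Cd79a stood at 211 ± 36 and 204 ± 9 CPM. No marker of T cells (8), macrophages and monocytes (7), neutrophils (4 of 5 tested) or NK cells (4 of 5 tested) was called between the genotypes with CpG. Their summed levels with CpG in Tlr9het and Tlr997 were 86.2 to 124 and 80.7 to 91.9 CPM for T cells, 134 to 149 and 89.7 to 179 for macrophages and monocytes, and 15.2 to 41.9 and 18.3 to 59.3 for neutrophils. Most of the T cell sum was again Lck, at 86.3 ± 12.4 CPM in Tlr9het and 71.5 ± 7.4 in Tlr997. None of 4 plasma cell markers or of 3 erythroid markers tested was called, and of 4 plasmacytoid dendritic cell markers Tcf4 was called higher in Tlr997 (0.62). The rest of that list went both ways and was not called: Bst2 at 0.42, Ccr9 at -0.09 and Siglech at -1.02 (limma adjusted p = 0.152). Siglech did not overlap between the genotypes, and its mean in Tlr997 was 1.73 CPM beside 184 CPM for Tcf4. The part of the B cell markers in the SOCS result was not tested.

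**Figure D3:**
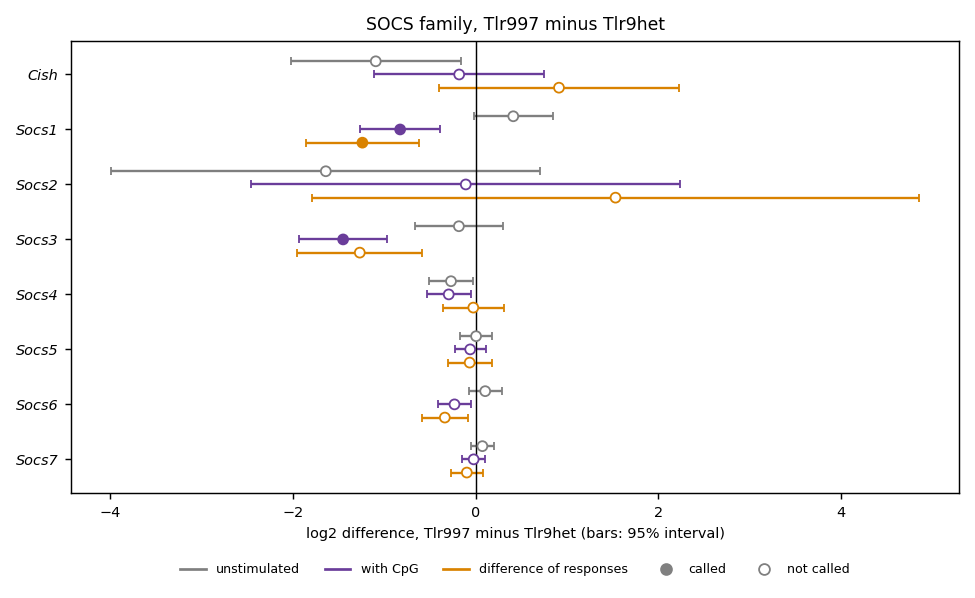
Points give the log2 difference between Tlr997 and Tlr9het (x axis, bars are 95% intervals) for each SOCS gene without agonist, with CpG and for the difference of the CpG responses, filled where called. With CpG the points of Socs3 at -1.45 and Socs1 at -0.83 are called, and the bars of Socs2 are the widest.

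In Tlr779 B cells CL097 raised the same members. Socs3 stood at 3.15, 2.85 and 3.38 log2 CPM unstimulated and at 8.86, 8.44 and 7.91 with CL097, a log2 fold change of 5.28 (SE 0.23, 38.7-fold, adjusted p = 3.53e-06), rank 9 from the top among 11082 genes tested. Socs1 stood at 1.65, 1.78 and 1.61 unstimulated and at 4.49, 2.98 and 3.66 with CL097, a change of 2.03 (SE 0.34, 4.08-fold, adjusted p = 0.00125). Neither overlapped between groups, and the Socs1 values with CL097 were spread over more than those of either CpG group. Cish stood at 0.29, 0.87 and 0.40 unstimulated and at 3.24, 1.83 and 2.71 with CL097, a change of 2.08 (SE 0.38, adjusted p = 0.00178). For Socs2 the values were 0.23, 0.17 and 1.23 and, with CL097, 2.37, 1.73 and 2.22, a change of 1.56 (SE 0.35, adjusted p = 0.00535). Replicate 1 had the highest CL097 value of Socs1, Socs2, Socs3 and Cish, and replicate 2 the lowest of Socs1, Socs2 and Cish.

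Among the growth factor linked members, Socs6 rose from 3.99 to 4.35 log2 CPM unstimulated to 4.69 to 4.88 with CL097 (change 0.59, SE 0.12, adjusted p = 0.00362). Socs7 changed by 0.36 (SE 0.08, adjusted p = 0.00561) and Socs5 by -0.26 (SE 0.08, adjusted p = 0.0234), both under the fold threshold, and Socs4 by 0.08 (95% interval -0.10 to 0.26). Thus 5 of 8 members were called higher and none lower, beside 22.7% of tested genes higher and 23.6% lower, with a member median of 1.08 and a median of -0.02 over all tested genes. The summed B cell markers were 5034 to 6552 CPM without and 1792 to 2481 with CL097, with Ms4a1, Cd79a, Cd79b and Cd22 called lower. Of the other markers, Csf1r (-1.05) and Lyz2 (-1.65) of macrophages, Sdc1, Igj and Xbp1 of plasma cells, the T cell marker Cd5 (above the filter in 1 treated library) and Tcf4 (-0.84) of plasmacytoid dendritic cells were called lower and Bst2 (1.34) higher, and the part of these markers was not tested. Set beside the CpG responses, which differ in agonist, sex and genotype and were not compared by a test, Socs3 changed by 5.28 with CL097 in Tlr779, 5.54 with CpG in Tlr9het and 4.27 in Tlr997, and Socs1 by 2.03, 2.56 and 1.32.

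**Figure D4:**
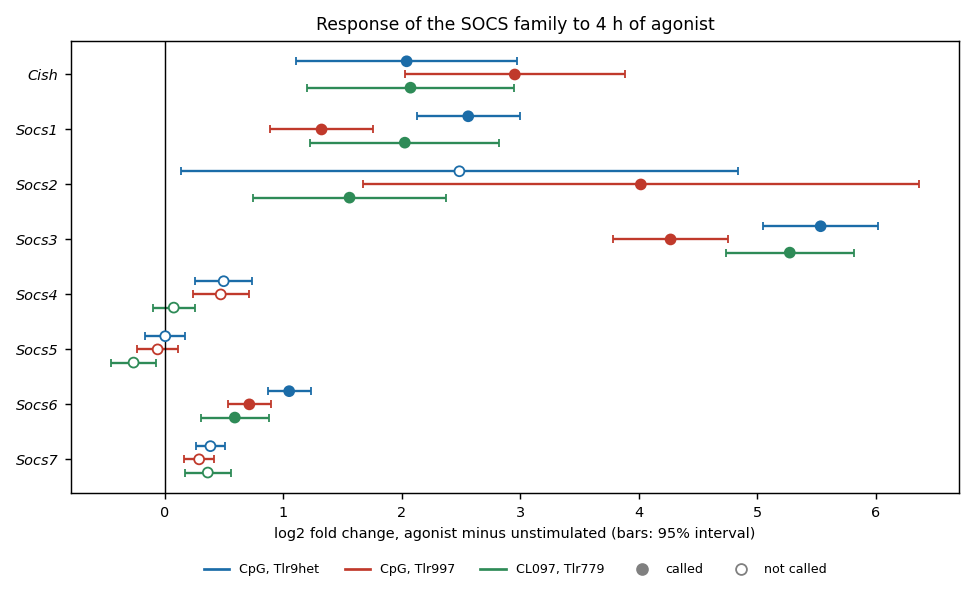
Points give the log2 fold change of each SOCS gene with agonist (x axis, bars are 95% intervals) for CpG in Tlr9het and Tlr997 and CL097 in Tlr779, filled where called. Socs3 lies between 4.27 and 5.54 in the 3 genotypes, Cish and Socs1 between 1.32 and 2.96, and Socs5 at or below 0.01.

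The rest of the pathway was counted from lists of ligands, receptors, JAKs, STATs, ligase partners, other inhibitors and STAT targets. These counts stand beside the shares of all tested genes given above, which for Tlr9het were 29.7% called higher and 28.2% called lower, for Tlr997 29.6% and 26%, and for CL097 22.7% and 23.6%. Of 12 cytokine ligands 6 were tested and all 6 were called higher with CpG in Tlr9het, with a median log2 fold change of 4.25. IL-6, a gp130 ligand, rose by 4.93 (Il6, 1.90 to 6.83 log2 CPM as group means), Il10 by 4.49 and Lif by 4.02, and Ifnb1 by 5.89 from a mean of -4.12 to 1.77. Lif and Ifnb1 had passed the filter only through CpG-treated libraries and Ifng had 1 unstimulated library above it, so for these 3 the direction was fixed by the filter, whereas Il6, Il10 and Osm were above it in all 6 unstimulated libraries. In Tlr997 the same 6 were called higher, with a median of 4.31. With CpG Osm, another gp130 ligand, was the only ligand called between genotypes, at a difference of -0.73 on the log2 scale in Tlr997 (SE 0.17, adjusted p = 0.0248). With CL097 4 of 4 ligands tested were called higher, led by Il6 at 6.66 and Il10 at 5.19, with Lif again above the filter only in treated libraries.

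More receptor chains were called lower than higher. In Tlr9het 9 of 17 tested were called lower with CpG, beside 28.2% of all tested genes, and 3 higher (Il2ra, Il7r and Il21r), beside 29.7%. In Tlr997 10 were called lower, beside 26%, and 2 higher (Il2ra and Il7r), beside 29.6%. Il6ra, the IL-6 receptor chain, fell by 2.53 on the log2 scale in Tlr9het and by 2.43 in Tlr997, while Il2ra, the inducible IL-2 receptor chain, rose by 3.68 and 3.40. Lifr, the LIF receptor chain, is among those called lower in all 3 genotypes, at -5.22 in Tlr9het and -3.56 in Tlr997, but it was above the filter in no treated library, so its direction was fixed by the filter. With CpG, Ifngr1 (a difference of -0.89, adjusted p = 2.71e-05) and Il10ra (-0.78, adjusted p = 2.47e-05) were the 2 receptor chains lower in Tlr997 than in Tlr9het, and both also differed in their response. With CL097 7 of 17 were called lower, beside 23.6% of all tested genes, and the same 2 as in Tlr997 higher.

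Among the STATs, which switch on SOCS genes, Stat3 and Stat5a rose in all 3 genotypes, with Stat5a changing by 2.05 in Tlr9het, 2.63 in Tlr997 and 2.18 with CL097 in Tlr779. Stat2, known for type I interferon signaling, fell by 1.53 on the log2 scale in Tlr9het and by 0.74 in Tlr997, and Stat4 and Stat5b were also called lower in Tlr9het. With CpG Stat2 was higher in Tlr997 than in Tlr9het (a difference of 0.72, adjusted p = 0.00222), the opposite sign to Socs1 and Socs3, and it was the only STAT of the 6 counted here that was called. Stat2, Stat5a and Stat5b had more positive CpG responses in Tlr997 by the interaction test. Of the 4 JAK kinases 2 were called lower with CpG in Tlr9het (Tyk2 at -1.70 and Jak2 at -0.59), 2 in Tlr997 (Tyk2 at -1.40 and Jak3 at -0.54) and 1 with CL097 (Tyk2 at -1.02), and none between genotypes.

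SOCS box proteins work with elongins B and C, a cullin and a RING protein. Of these 6 ligase partners 4 were called higher with CpG in Tlr9het (Tceb1, Rnf7, Rbx1 and Cul5), 4 in Tlr997 (Tceb1, Rnf7, Rbx1 and Cul2) and 2 with CL097 (Tceb1 and Cul2), led by Tceb1 (elongin C) at 1.36, 1.39 and 0.96, and none was called between the genotypes. The shares of all tested genes called higher were 29.7%, 29.6% and 22.7%, so the count with CL097 is near its background. Of 10 other inhibitors of the pathway, 2 rose with CpG in Tlr9het (Ptpn1 and Ptpn2), 2 in Tlr997 (Ptpn2 and Usp18) and 3 with CL097 (Ptpn1, Ptpn2 and Usp18), and Pias3, Ptpn6 and Sh2b3 fell in all 3 genotypes, which is near the share of all tested genes in each direction. Between the genotypes with CpG, Ptpn1, which encodes a phosphatase that acts on JAKs, was lower in Tlr997 (a difference of -1.03, adjusted p = 7.5e-05) and Usp18, an interferon-induced inhibitor of the interferon receptor, was higher (1.21, adjusted p = 0.012). Ptpn1 was also named by the study from these libraries. Of 10 textbook STAT targets 7 rose and 2 fell (Irf1 and Mcl1) with CpG in Tlr9het, 5 rose (Bcl2l1, Myc, Pim1, Pim2 and Fcer2a) and the same 2 fell in Tlr997, and 7 rose and 1 fell (Mcl1) with CL097, beside 29.7%, 29.6% and 22.7% of all tested genes higher and 28.2%, 26% and 23.6% lower. Bcl2l1, the survival gene for BCL-XL, rose by 4.51, 3.93 and 2.95 in the 3 genotypes, Myc by 2.77, 2.39 and 2.56 and Pim1 by 2.26, 1.94 and 2.34, and Bcl6 was the only target that differed between genotypes with CpG, at -0.55 (adjusted p = 0.00414) in Tlr997, and was likewise named by the study.

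**Figure D5:**
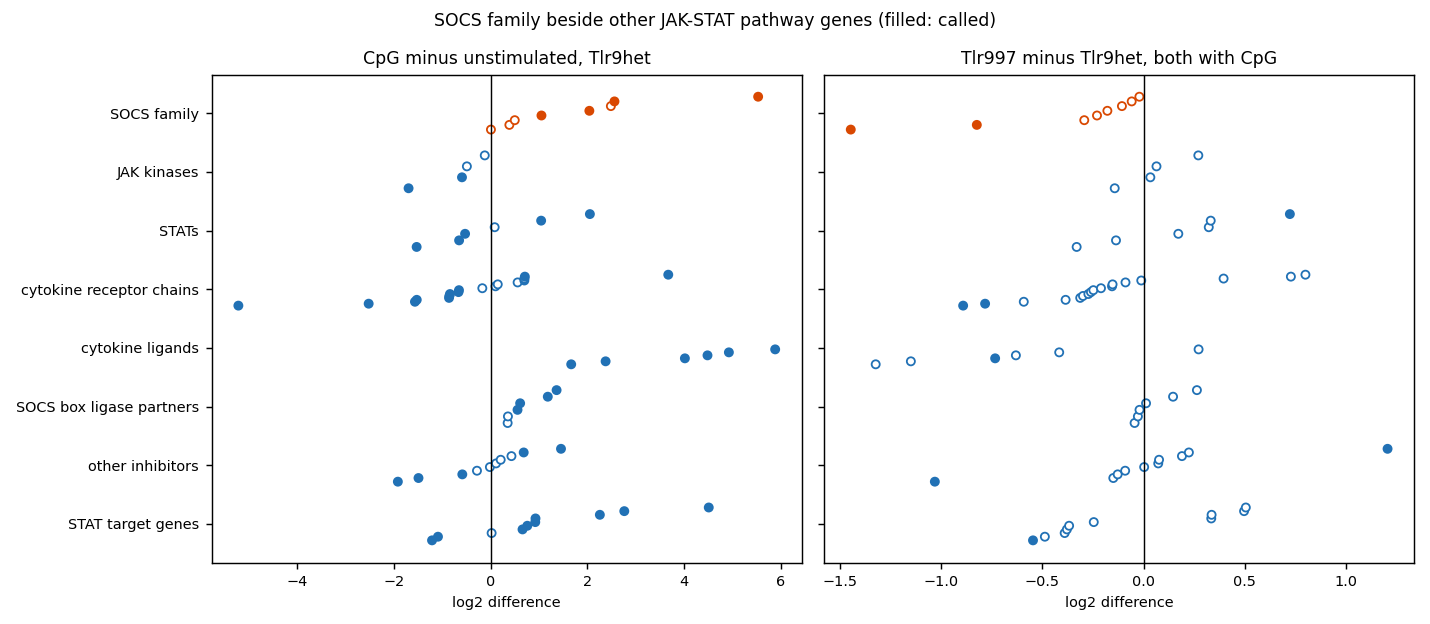
Each point is 1 gene of the SOCS family (orange) or of a JAK-STAT pathway list (blue), placed by its log2 difference (x axis) for CpG against unstimulated in Tlr9het (left) and for Tlr997 against Tlr9het with CpG (right), filled where called. The height within a row only separates points, and the x axes differ. The ligand row lies wholly to the right on the left panel, and Socs3 at -1.45 and Socs1 at -0.83 lie at the left end of the SOCS row of the right panel.

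Genes whose pattern over the 12 Tlr9het and Tlr997 libraries was most like that of an inducible member were found by the smallest root mean square difference of gene-centred log2 CPM, among 9377 or 9378 tested genes with a mean above 2. For Socs3 they were Ifnlr1 (0.37), Fam89a (0.37) and Jun (0.48), and for Socs1 they were Sema4a (0.22), 5730508B09Rik (0.24) and Exosc6 (0.25). Ifnlr1 encodes an interferon lambda receptor chain, and its mean went from 1.23 to 6.04 log2 CPM with CpG in Tlr9het and from 0.96 to 5.22 in Tlr997. For Cish they were Yae1d1 (0.33), Fitm2 (0.39) and Slc29a2 (0.43). For Socs2 they were Chek1 (0.30), Rab39b (0.36) and Krt222 (0.70), with unstimulated means of -0.39, -0.67 and -1.16 log2 CPM in Tlr997 and 1.56, 1.27 and 1.32 in Tlr9het. These genes were picked for matching a Socs2 pattern that the value of -4.57 dominates, and without that library the unstimulated Socs2 difference between genotypes was 0.20. All points share the 12 libraries, so this likeness is a description of them.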

How the data were processed

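RNA-seq was done on B cells of 6 groups of 3 libraries. The authors removed adapters with Trim Galore 0.6.5 (FastQC 0.11.7), aligned reads with STAR 2.6.1a to mm10 and obtained gene counts from featureCounts (Subread 2.0.1), per the labels and the study's methods, and then quantile normalized the counts and applied voom. The deposited values are log2 CPM with 3 decimals for 23420 genes, 1 file per sample, without counts, so count-based tests could not be used and depth is unknown. Summed CPM per library was 991992 to 1004412. Labels say that 3 mice were used per genotype and do not say which library came from which mouse, so p-values measure the spread between these libraries.

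Groups were taken from the titles. limma 3.58.1 (R 4.3.3) was fitted to the deposited log2 values with a mean per group and a mean-dependent prior variance (trend), over the 12 Tlr7-/- libraries together and the 6 Tlr779 libraries apart. Genes with at least 3 libraries above 0 log2 CPM were tested (11494 and 11082), and p-values were Benjamini-Hochberg adjusted over all of them. Calls required an adjusted p below 0.05 and an absolute log2 fold change above 0.5. All intervals are at 95%. Fold changes contain voom's offset, which by itself understates the change of low genes. A single value near the floor can enlarge a change instead. Socs2 in Tlr997 changed by 4.02 with CpG, and by 2.19 without unstimulated replicate 3. The fit was also run on simulated data of independent normal values. These had no pairing and no offset per replicate number, so that run cannot check the fit for such features.

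Members and gene lists were chosen with earlier results of these data known. All members are named. From each pathway list, at most 4 called genes with the largest changes are named, with any gene that a count of 5 or fewer needs. Some genes of the lists are not reported here. Levels per kilobase used the union of GENCODE M21 exons (GRCm38), from 2891 bases for Socs3 to 11349 for Socs6. A member whose expressed transcript is shorter than its union is understated, and the order, shares and family sum carry this limit.

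Libraries with the same replicate number deviated together from their group means in Tlr9het (r of 0.513, 0.287 and 0.509) and in Tlr779 (0.252, 0.485 and 0.334), so the numbers were taken to pair these libraries. In Tlr997 they did not (0.373, 0.0826 and 0.0248). Of 6209 genes below -4 log2 CPM in all 18 libraries, 6008 held a single value per replicate number and 524 of these differed between numbers, so an offset per number appears to have been taken out before deposit, which these fits do not account for. Alternatives were a replicate block, each library left out, other variance models, library weights, filters, log2(CPM + 1), centring, fold thresholds and other sets of libraries in the fit.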

Additional observations from a re-analysis of the deposited data

Results flagged for a closer look

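The CpG response of Socs1 differed between genotypes by the interaction test, at -1.24 on the log2 scale (Tlr997 minus Tlr9het, adjusted p = 0.0434). The call was lost in 9 of 12 fits that left out 1 library each, where the difference was -1.40 to -0.97, and in 3 of 13 other settings. Socs1 rose by 2.56 in Tlr9het and by 1.32 in Tlr997, without overlap of stimulated and unstimulated libraries in either genotype. The B cell marker sum with CpG was 1155 to 1211 CPM in Tlr9het and 2025 to 2482 in Tlr997.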

How the results depend on the processing

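The calls of Socs3, Socs1, Cish and Socs6 with CpG or CL097 were kept in each fit that tested them, apart from Socs6 in Tlr997 and Tlr779 under a minimum log2 fold change of 1. Socs2 lost its call with CL097 with all 18 libraries in the model (adjusted p = 0.175). With each library left out in turn, the number of members called ranged from 4 to 5 for CpG in Tlr9het, 5 to 6 in Tlr997, 0 to 0 between unstimulated genotypes, 1 to 2 between genotypes with CpG, 0 to 2 for the difference of responses and 5 to 5 for CL097. Only 3 members were called for CpG in Tlr997, and 3 for CL097, when a mean above 2 log2 CPM was required, since Socs2 and Cish were then not tested. The same held in Tlr9het, where Socs1, Socs3 and Socs6 stayed called. Between genotypes with CpG, 1 member was called (Socs3) with no trend of the variance, with no filter, with a minimum log2 fold change of 1 and with all 18 libraries in the model, where Socs1 had an adjusted p of 0.0604, 0.127, 0.0299 and 0.121. For the difference of responses, 0 members were called with no trend, no filter or all 18 libraries (Socs1 adjusted p = 0.0904, 0.167 and 0.144), and 2 with library weights, with the stricter filter and with log2(CPM + 1), where Socs3 was added (adjusted p = 0.00553, 0.0497 and 0.0418). Centring the libraries changed no call of a member.

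With the replicate block (number as a 3-level term), 4, 5, 0, 2, 1 and 5 members were called, as without it. With a replicate block within genotype, 5 members were called for CpG in Tlr9het, and over all genes 329 in place of 177 were called for the difference of responses. With the 3-level block and unstimulated Tlr997 replicate 3 left out, an alternative chosen after seeing the data, 2 members were called for the difference of responses, the Socs2 and Socs3 differences between unstimulated genotypes turned to 0.48 and 0.18, and the Socs2 difference of responses turned to -0.59.

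Leaving out 1 library also turned the sign of values near 0. The Socs5 response to CpG in Tlr9het ranged from -0.032 to 0.073, and the unstimulated difference from -2.61 to 0.20 for Socs2, -0.33 to 0.070 for Socs3 and -0.032 to 0.067 for Socs5. With CpG the difference ranged from -0.40 to 0.14 for Socs2, -0.053 to 0.020 for Socs7 and -0.44 to 0.051 for Cish. The difference of responses ranged from -0.30 to 2.51 for Socs2 and -0.16 to 0.10 for Socs4. Depth being unknown, the low values of Socs2 and Cish carry no counting error here. The cause of these changes was not tested.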
